A study of Mus musculus with 22 samples.

Results

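Glutathione transferases and the enzymes of glutathione synthesis were followed as a set of 10 genes in mouse lung metastases: Gstm1, Gstm2, Gstm5, Gsta4, Gstp1, Gsto1, Gstt1, Gclc, Gclm and Nqo1. The genes were matched by symbol in a table of log2 array signals, with the probe set of highest mean over the 22 arrays where a symbol had several. All 10 were found among 19505 genes on the array, each with 1 probe set, and all 10 were among the 15545 genes that passed the filter on low signals. They were chosen because Gstm1 was strongly lower in the metastases of the PGC-1alpha line, so the differences between the lines below are descriptions of these 10 genes and carry no test. The comparisons of treatments were not used in the choice.

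The mice had received NMuMG-ErbB2 cells in the tail vein. NMuMG is an epithelial line from mouse mammary gland, and ErbB2 is a receptor tyrosine kinase that acts as an oncogene in breast tumours; the cells of all 4 groups carried it. For metastases of the NMuMG-ErbB2/PGC-1alpha line there were 6 arrays under phenformin and 6 under PBS. For metastases of the control line NMuMG-ErbB2/VC there were 5 arrays under phenformin and 5 under PBS. Phenformin was given for 1 week. The sample titles do not say whether an array holds 1 metastasis or several. PGC-1alpha is a transcriptional coactivator of mitochondrial genes, and phenformin is a biguanide that inhibits respiratory complex I. The mouse strain, age, phenformin dose, promoter of the introduced gene and number of animals behind the arrays are not given in the sources used here, nor is it stated whether either line is a clone. The introduced gene goes with the injected line, so it cannot be told apart from other differences between the lines.

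Glutathione is a tripeptide thiol that cells use against oxidants and electrophiles. Its synthesis starts with glutamate-cysteine ligase, made of a catalytic subunit (Gclc) and a modifier subunit (Gclm), and glutathione transferases then join it to electrophiles for export. The transferases fall into classes named by Greek letters: Gstm1, Gstm2 and Gstm5 are mu class, Gsta4 alpha, Gstp1 pi, Gsto1 omega and Gstt1 theta. Many of these genes, with the quinone reductase Nqo1, are known targets of NRF2, a transcription factor that binds antioxidant response elements. In the lung, club cells of the airway lining are known for high levels of detoxifying enzymes.

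Promoter sequences of 4 genes are shown because the results turn on the mu-class genes, which lie in 1 cluster on chromosome 3, and on the NRF2 target Gclm, on the same chromosome. Each runs 5′ to 3′ on the gene's strand from 250 bases before to 50 bases after the annotated start, taken from RefSeq on GRCm38.p6. They lie at chr3:108017769-108018068 (minus strand, 1 of the Gstm1 entries), chr3:107986371-107986670 (minus strand), chr3:107895604-107895903 (plus strand) and chr3:122245307-122245606 (plus strand) in the order printed. Capitals mark matches on either strand to the core of the antioxidant response element, TGACNNNGC, or to the AP-1 site, TGACTCA.
Gstm1: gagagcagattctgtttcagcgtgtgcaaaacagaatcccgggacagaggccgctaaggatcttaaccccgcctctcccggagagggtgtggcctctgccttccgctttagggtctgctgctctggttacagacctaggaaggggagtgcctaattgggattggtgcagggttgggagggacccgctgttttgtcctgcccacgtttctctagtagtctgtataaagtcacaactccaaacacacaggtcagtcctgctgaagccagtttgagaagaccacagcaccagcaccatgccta
Gstm2: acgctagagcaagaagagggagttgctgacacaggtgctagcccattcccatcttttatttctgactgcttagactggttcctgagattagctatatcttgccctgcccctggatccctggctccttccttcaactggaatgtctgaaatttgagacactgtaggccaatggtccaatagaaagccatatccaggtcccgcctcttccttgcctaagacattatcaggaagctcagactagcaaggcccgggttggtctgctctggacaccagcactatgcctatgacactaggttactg
Gstm5: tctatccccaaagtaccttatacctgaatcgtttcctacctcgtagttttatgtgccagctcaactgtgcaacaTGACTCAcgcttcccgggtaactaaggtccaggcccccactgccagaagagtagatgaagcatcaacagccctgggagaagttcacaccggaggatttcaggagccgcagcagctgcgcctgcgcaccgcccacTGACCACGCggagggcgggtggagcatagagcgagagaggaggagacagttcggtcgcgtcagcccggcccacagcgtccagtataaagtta
Gclm: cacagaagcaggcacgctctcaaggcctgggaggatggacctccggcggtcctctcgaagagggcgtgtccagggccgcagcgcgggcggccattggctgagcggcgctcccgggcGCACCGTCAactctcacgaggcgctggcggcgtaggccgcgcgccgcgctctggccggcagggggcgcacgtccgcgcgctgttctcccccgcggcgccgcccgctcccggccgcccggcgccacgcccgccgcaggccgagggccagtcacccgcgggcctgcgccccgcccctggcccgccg
Of the 10 genes, 8 had promoter entries in that table, and Gsta4 and Gclc had none. The antioxidant response element core matched in 2 of the 8: as TGACCACGC starting 42 bases before the start of Gstm5, and as GCACCGTCA on the opposite strand, 134 bases before the start of Gclm. In all 32851 promoters of the table, 12.4% held a match. The AP-1 site matched once in Gstm5, 176 bases before the start, and once in Gstp1, as TGAGTCA 74 bases before it, against 5.2% of all promoters. The 2 motifs did not overlap in these windows. The Gstm1 and Gstm2 windows held neither string of letters.

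**Figure D1:**
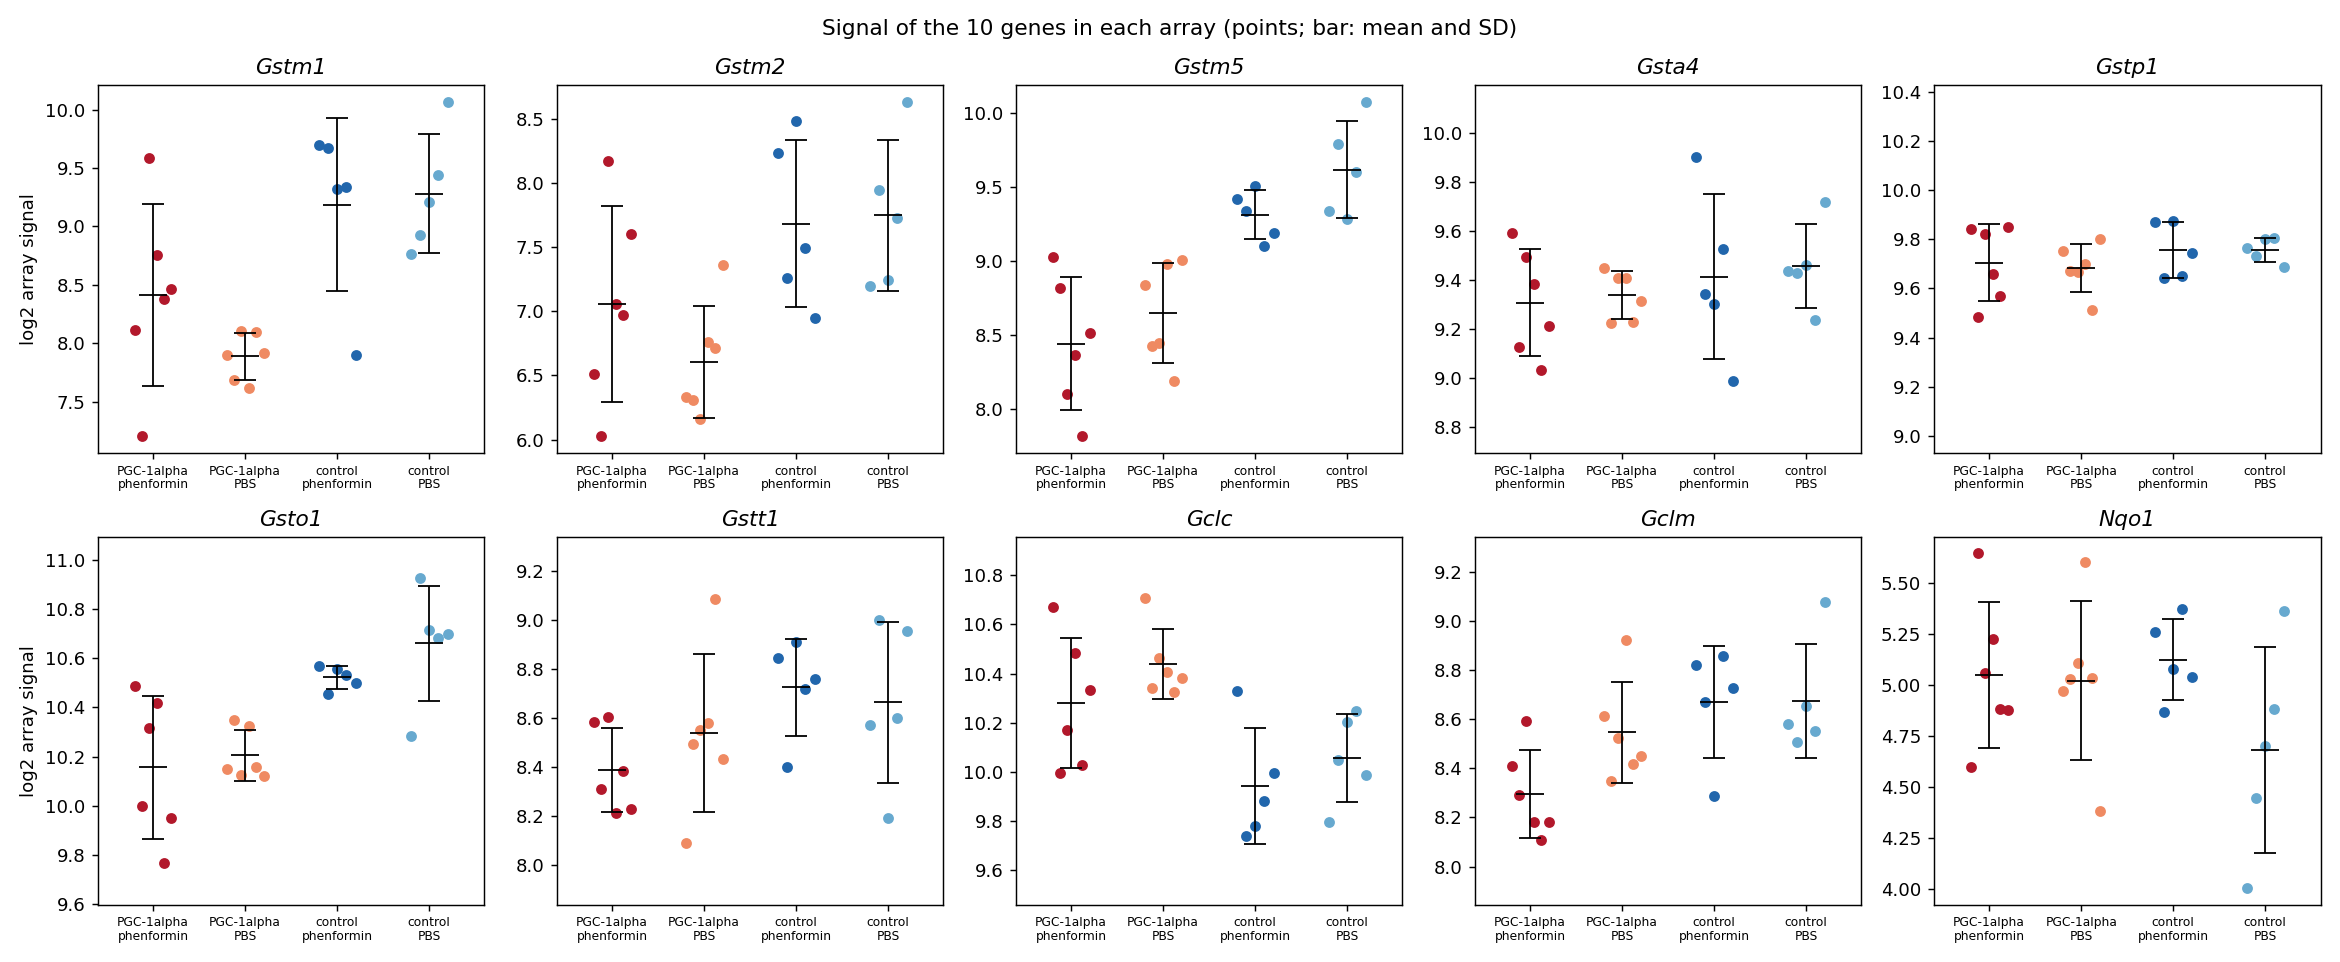
Log2 array signal of each of the 10 genes (y axis, own scale per panel) in the 4 groups (x axis); each point is 1 array and the bars are the group mean and SD. Gstm5 separates the lines, with every PGC-1alpha array at or below 9.03 and every control array at or above 9.11, and Gstp1 and Gsta4 overlap throughout.

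The mu-class transferases Gstm1, Gstm2 and Gstm5 were the members furthest below the control line in the PGC-1alpha metastases. Gstm1 was 1.71-fold lower under phenformin and 2.62-fold lower under PBS. Gstm5 was 1.83-fold lower under phenformin and 1.96-fold lower under PBS, and was the member whose 12 PGC-1alpha arrays all lay below all 10 control arrays. In these bulk samples, fewer cells of a type and less RNA per cell cannot be told apart.

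Gstm1 encodes a mu-class enzyme known for conjugating reactive epoxides and other electrophiles. Under phenformin its log2 signal ran from 7.20 to 9.58 (median 8.42) in the 6 PGC-1alpha arrays, and was 9.70, 9.67, 9.32, 9.34 and 7.90 in the 5 control arrays. The groups overlapped there: array 3 of the PGC-1alpha group was high, at 9.58, and array 5 of the control group was low, at 7.90. Under PBS the signal ran from 7.62 to 8.11 (median 7.91) in the PGC-1alpha arrays, and was 8.76, 8.92, 9.20, 9.44 and 10.07 in the control arrays. Every PGC-1alpha array under PBS was thus below every control array. Gstm1 exceeded the 95th percentile of the negative control probe sets in 14 of 22 arrays. Every PGC-1alpha array under PBS lay below it, so that group's values lie within the upper range of the negative controls. Group means were 8.42 ± 0.78 in PGC-1alpha under phenformin (SD, n = 6), 7.89 ± 0.20 in PGC-1alpha under PBS (n = 6), 9.19 ± 0.74 in control under phenformin (n = 5) and 9.28 ± 0.51 in control under PBS (n = 5). PGC-1alpha minus control was -0.77 (SE 0.32) under phenformin and -1.39 (SE 0.32) under PBS. In the order of levels, the PGC-1alpha group under PBS was lowest, then PGC-1alpha under phenformin, control under phenformin and control under PBS, and the control groups differed by less than their SDs.

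Gstm2, a close paralog of Gstm1, gave a similar order at a weak signal. Its signal exceeded the 95th percentile of the negative control probe sets in 4 of 22 arrays, so that most of its values lie within the upper range of the negative controls. Under phenformin it ran from 6.03 to 8.17 (median 7.01) in PGC-1alpha arrays, against 8.23, 7.26, 8.48, 7.50 and 6.95 in control arrays, with wide overlap. Under PBS it ran from 6.16 to 7.36 (median 6.52) in PGC-1alpha arrays, against 7.19, 7.94, 7.24, 7.73 and 8.63 in control arrays. A single PGC-1alpha array under PBS, array 6, reached into the control range. The difference was -0.63 (SE 0.34) under phenformin and -1.14 (SE 0.34) under PBS.

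Gstm5 lies at one edge of the mu-class cluster, next to Gstm7. Its log2 signal under phenformin ran from 7.82 to 9.03 (median 8.44) in PGC-1alpha arrays, against 9.42, 9.34, 9.51, 9.11 and 9.19 in control arrays. Under PBS it ran from 8.19 to 9.01 (median 8.65) in PGC-1alpha arrays, against 9.34, 9.79, 9.29, 9.60 and 10.08 in control arrays. The groups did not overlap under either treatment. PGC-1alpha minus control was -0.87 (SE 0.20) under phenformin and -0.97 (SE 0.20) under PBS. The order of the groups also differed from that of Gstm1: PGC-1alpha under phenformin was lowest, at 8.44 ± 0.45, followed by PGC-1alpha under PBS at 8.65 ± 0.34 (SD, n = 6 each), a gap within their SDs.

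**Figure D2:**
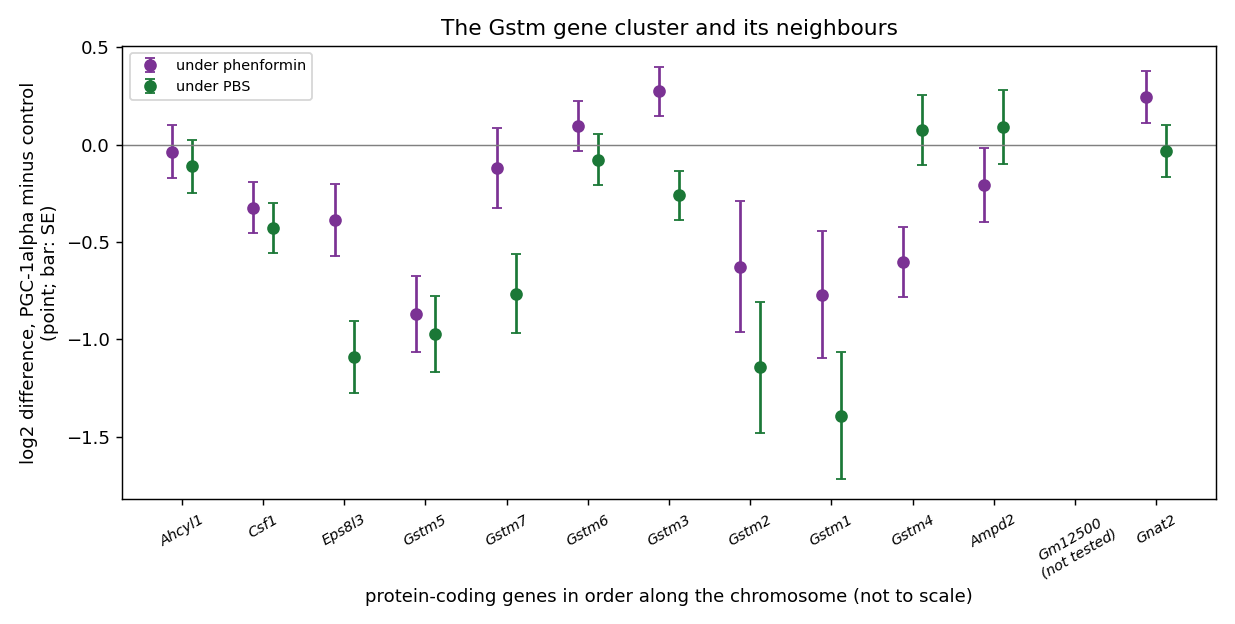
Difference of log2 signal, PGC-1alpha minus control (y axis), for the protein-coding genes of the Gstm cluster and its neighbours in chromosome order (x axis, not to scale), under phenformin and under PBS; bars are SE. Gstm5, Gstm2 and Gstm1 lie below 0 under both treatments, while Gstm6 lies near 0 between them. The mean Gstm6 signal, 5.78, is below the 95th percentile of the negative controls (7.83 to 8.43 by array).

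Differences between the lines varied along the mu-class cluster. From Gstm5 the cluster continues through Gstm7, Gstm6, Gstm3, Gstm2 and Gstm1 to Gstm4. Gstm7 had differences between the lines of -0.12 under phenformin and -0.76 under PBS (SE 0.20 each). Gstm6, between Gstm7 and Gstm3, had differences between the lines of 0.10 (SE 0.13) under phenformin and -0.08 (SE 0.13) under PBS. Gstm3 had 0.28 and -0.26 (SE 0.13 each). Gstm4, next to Gstm1, was -0.60 (SE 0.18) under phenformin and 0.08 (SE 0.18) under PBS. Outside the transferases, the flanking gene Eps8l3, next to Gstm5, had differences of -0.39 under phenformin and -1.09 under PBS (SE 0.18 each), and Ampd2, next to Gstm4, had -0.21 and 0.09 (SE 0.19 each). Csf1, beyond Eps8l3, had -0.32 and -0.43 (SE 0.13 each). Mean signals of Gstm3, Gstm4, Gstm6, Gstm7 and Eps8l3, 5.15 to 7.02, lay below the 95th percentile of the negative controls (7.83 to 8.43 by array). Whether their small differences come from low signal was not tested. The Gstm paralogs are alike in sequence, and whether their probes also bind each other's transcripts was not tested.

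Among the transferases outside the mu class, the omega-class Gsto1, which also reduces dehydroascorbate and thiols, was the member furthest below control in PGC-1alpha metastases. Under phenformin it ran from 9.77 to 10.49 (median 10.16) in PGC-1alpha arrays, against 10.57, 10.45, 10.56, 10.53 and 10.50 in control arrays. Under PBS it ran from 10.12 to 10.35 (median 10.15) in PGC-1alpha arrays, against 10.28, 10.93, 10.72, 10.69 and 10.70 in control arrays. The groups overlapped through 1 array in each treatment: array 1 of PGC-1alpha under phenformin was high, at 10.49, and array 1 of control under PBS was low, at 10.28. The difference was -0.37 under phenformin and -0.46 under PBS (SE 0.13 each), which is 1.29-fold and 1.37-fold lower in PGC-1alpha.

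Gsta4 and Gstp1 stayed closer to the control line, and so did Gstt1 under PBS. Under phenformin the Gstt1 difference was near that of Gsto1. Gsta4, which detoxifies 4-hydroxynonenal from lipid peroxidation, had differences of -0.11 under phenformin and -0.12 under PBS (SE 0.14 each), with arrays between 8.99 and 9.90 over all groups. Gstp1, the pi-class enzyme, had -0.05 and -0.07 (SE 0.09 each), with arrays between 9.48 and 9.88. Gstt1, of the theta class, had -0.34 under phenformin and -0.12 under PBS (SE 0.16 each), with arrays between 8.09 and 9.09. For all 3 the lines overlapped under both treatments.

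Of the subunits of glutamate-cysteine ligase, Gclc had higher means and Gclm lower means in PGC-1alpha than in control metastases, and the Gclm gap under PBS was smaller than its SE. Gclc was 1.26-fold higher in PGC-1alpha than in control metastases under phenformin and 1.30-fold higher under PBS. Its signal under phenformin ran from 9.995 to 10.67 (median 10.25) in PGC-1alpha arrays, against 10.33, 9.74, 9.78, 9.88 and 9.99 in control arrays. There the control array at 10.33 lay within the PGC-1alpha range. Under PBS it ran from 10.33 to 10.71 (median 10.39) in PGC-1alpha arrays, against 9.80, 10.05, 10.20, 10.25 and 9.99 in control arrays, with no overlap. The differences were 0.34 under phenformin and 0.38 under PBS (SE 0.13 each).

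Gclm raises the efficiency of the catalytic subunit. Under phenformin it ran from 8.11 to 8.59 (median 8.24) in PGC-1alpha arrays, against 8.82, 8.67, 8.29, 8.86 and 8.73 in control arrays. Under PBS it ran from 8.35 to 8.93 (median 8.49) in PGC-1alpha arrays, against 8.58, 8.51, 8.66, 8.55 and 9.08 in control arrays. The groups overlapped under both treatments, under phenformin through the single control array at 8.29. PGC-1alpha minus control was -0.38 under phenformin and -0.13 under PBS (SE 0.13 each), and -0.03 under PBS without array 5 of control. Of the promoters printed above, those of Gclm and Gstm5 held the antioxidant response element core.

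Nqo1 was not distinguishable from the negative controls. Its mean over 22 arrays was 4.97, array medians of the negative controls were 4.61 to 5.05, and Nqo1 exceeded the 95th percentile of the negative controls in 0 of 22 arrays. Its group means were 5.05 ± 0.36 in PGC-1alpha under phenformin and 5.02 ± 0.39 in PGC-1alpha under PBS (SD, n = 6 each), and 5.12 ± 0.20 in control under phenformin and 4.68 ± 0.50 in control under PBS (SD, n = 5 each). No fold is given for it.

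**Figure D3:**
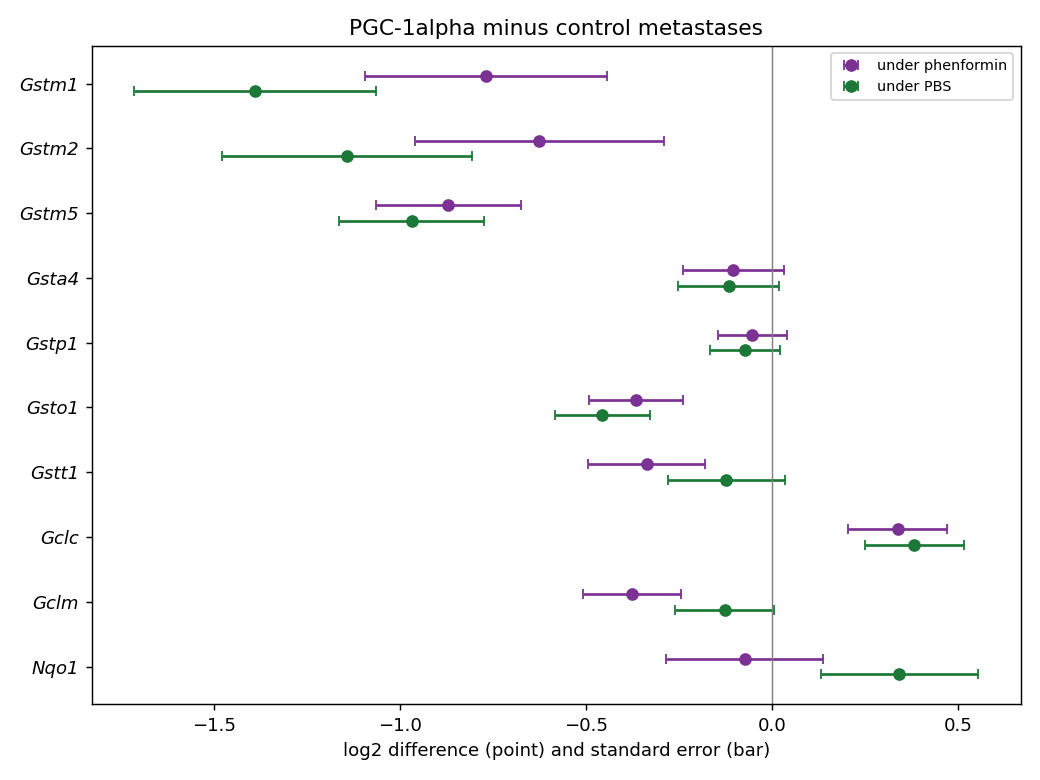
Difference of log2 signal, PGC-1alpha minus control (x axis), for each of the 10 genes (y axis), under phenformin and under PBS; points are differences and bars SE. The mu-class genes lie furthest below 0, Gclc lies above 0 under both treatments, and Gstp1 and Gsta4 lie close to 0.

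Counted over the set, 9 of 10 genes had a difference below 0 under phenformin, against 49.6% of all 15545 genes, and 8 of 10 under PBS, against 49.1%. Some of these differences were smaller than their SE: Gsta4, Gstp1 and Nqo1 under phenformin, and Gsta4, Gstp1, Gstt1 and Gclm under PBS. Groups did not overlap, with PGC-1alpha lower, for Gstm5 under phenformin (4.94% of all genes) and for Gstm1 and Gstm5 under PBS (1.61%), and with PGC-1alpha higher for Gclc under PBS (1.65%). Over both treatments Gstm5 alone of the 10 genes had all PGC-1alpha arrays below all control arrays, beside 0.405% of all genes. The median difference of the 10 genes was -0.35 under phenformin and -0.13 under PBS, beside 0.00 and 0.01 over all genes. These counts come from the comparison by which the genes were chosen.

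None of the 10 genes passed the test for phenformin. In limma with Benjamini-Hochberg adjustment, 0 of 10 passed for phenformin against PBS in PGC-1alpha metastases, in control metastases or averaged over the lines, and 0 of 10 for the interaction of line and treatment, where 0% of all genes passed in each. At an unadjusted p under 0.05, 0 of the 10 passed in any of the 4 comparisons, beside 674, 1498, 616 and 1724 of the 15545 genes. The comparisons within the lines share their arrays with the comparisons between the lines.

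In PGC-1alpha metastases Gstm1 had the largest treatment difference of the set. Phenformin minus PBS was 0.53 (SE 0.31, 95% interval -0.11 to 1.17, limma adjusted p = 0.957) in PGC-1alpha metastases, where 5 of 6 phenformin arrays lay above the highest PBS array and 1 lay below the lowest. In control metastases it was -0.09 (SE 0.34, interval -0.79 to 0.61, limma adjusted p = 0.948), with wide overlap. The interaction was 0.62 (SE 0.46, interval -0.33 to 1.57, limma adjusted p = 0.619), so the smaller line difference under phenformin than under PBS was not beyond the error. Gstm2 had 0.45 (SE 0.32) in PGC-1alpha and -0.06 (SE 0.35) in control metastases, with an interaction of 0.52 (SE 0.47, limma adjusted p = 0.705). With the score over alveolar, airway and endothelial markers as a covariate, the Gstm1 treatment difference in PGC-1alpha metastases was 0.08 in place of 0.53. Without array 3 of PGC-1alpha under phenformin that difference was 0.29 for Gstm1 and 0.23 for Gstm2, and without array 5 of control under phenformin the Gstm1 interaction was 0.30.

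For Gstm5, phenformin minus PBS was -0.21 (SE 0.19, interval -0.59 to 0.18) in PGC-1alpha and -0.31 (SE 0.20, interval -0.73 to 0.11) in control metastases. Gclm had -0.25 (SE 0.13, interval -0.51 to 0.01, limma adjusted p = 0.957) in PGC-1alpha metastases, where 4 of 6 phenformin arrays lay below the lowest PBS array, and 0.00 (SE 0.14) in control metastases. The other 5 genes above the negative controls, Gsta4, Gstp1, Gsto1, Gstt1 and Gclc, had differences between -0.16 and 0.06 in the 2 lines. These intervals leave room for changes of the size they span.

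**Figure D4:**
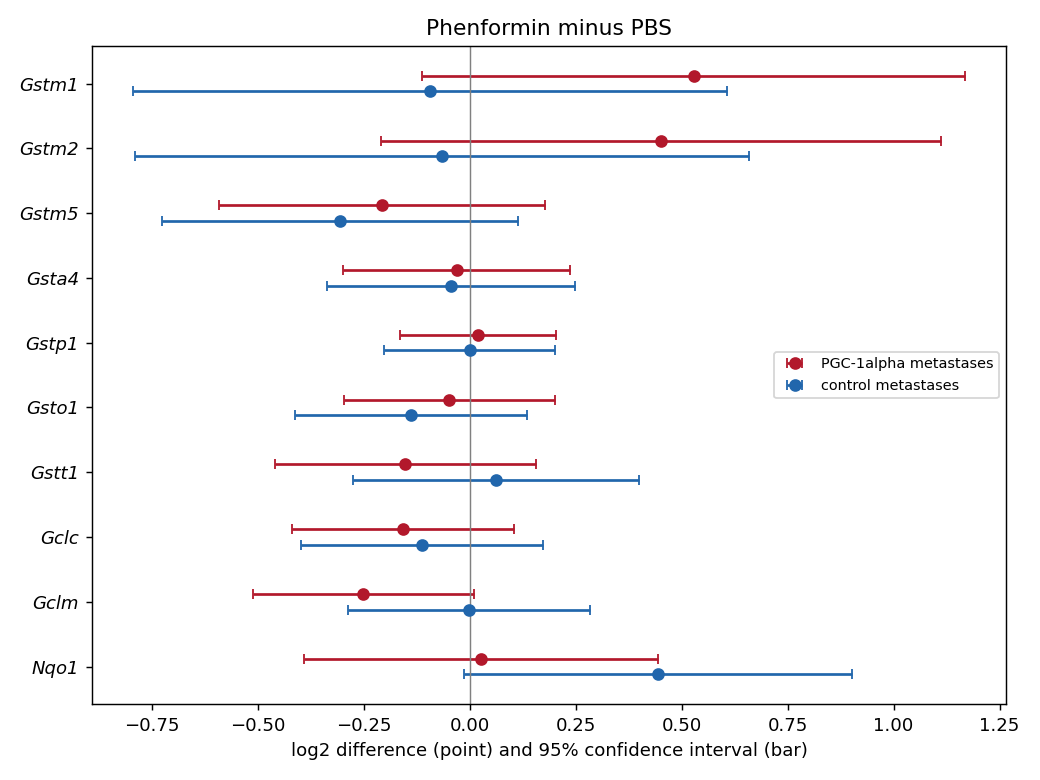
Difference of log2 signal, phenformin minus PBS (x axis), for each of the 10 genes (y axis), in PGC-1alpha and control metastases; points are differences and bars 95% confidence intervals from limma. Every interval spans 0, and those of Gstm1 and Gstm2 are the widest.

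Within each line, the median of Gstm1 was higher in arrays with high markers of airway cells, with overlap. Of 9 listed club and ciliated cell markers, 8 were on the array, 1 of them below the median negative control in every group. Their mean level ranged over 6.08 to 9.93 (median 7.29) in PGC-1alpha under phenformin, 5.96 to 7.85 (6.09) in PGC-1alpha under PBS, 6.26 to 8.44 (7.99) in control under phenformin and 6.37 to 8.11 (7.93) in control under PBS. Over the 7 markers tested, the median difference between the lines was 0.12 under phenformin (lowest limma adjusted p = 0.411) and -1.01 under PBS (lowest limma adjusted p = 0.0896). For phenformin minus PBS their median was 0.77 in PGC-1alpha and -0.27 in control metastases. The part of these cells in the Gstm1 differences was not tested beyond the covariate values below. The arrays fell to both sides of a gap, 12 between 5.96 and 6.97 and 10 between 7.85 and 9.93, so no correlation is given. The PGC-1alpha group under PBS had 5 of its 6 arrays on the lower side, PGC-1alpha under phenformin 3 of 6, and the control groups 2 of 5 each.

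On the lower side, Gstm1 ran from 7.20 to 8.46 (median 7.91) in 8 PGC-1alpha arrays and from 7.90 to 9.34 (median 8.98) in 4 control arrays. On the upper side it ran from 8.11 to 9.58 (median 8.57) in 4 PGC-1alpha arrays and from 8.92 to 10.07 (median 9.56) in 6 control arrays. Gstm1 medians of both lines were thus higher on the upper side, with overlap between the sides. Gstm5 ran from 8.19 to 9.03 in PGC-1alpha and from 9.11 to 9.34 in control arrays on the lower side, and from 7.82 to 8.45 and from 9.34 to 10.08 on the upper side. For Gstm5 the lines did not overlap over all arrays, so no split of the arrays could show an overlap. The split was made after the values were seen, and it is given as a description. Of the PGC-1alpha arrays, 5 of 8 on the lower side and 1 of 4 on the upper side were under PBS. Line, treatment and marker level thus cannot be told apart by it.

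With the club and ciliated score as a covariate, the Gstm1 difference between the lines was -0.81 under phenformin and -0.94 under PBS. With a score over alveolar, airway and endothelial markers it was -0.52 under phenformin and -0.62 under PBS. By the same score the Gstm5 difference was -0.88 under phenformin and -1.01 under PBS, and with a score over immune markers it was -0.68 and -0.69. Array 3 of PGC-1alpha under PBS, with the highest Gstm1 of its group (8.11), had a signal of 11.44 for Scgb1a1, the club cell secretoglobin, and array 3 of control under PBS had 8.21 for Scgb1a1 and 9.20 for Gstm1. Array 3 of PGC-1alpha under phenformin, with the highest Gstm1 of its group, had the highest Scgb1a1 of all 22 arrays (12.45).

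**Figure D5:**
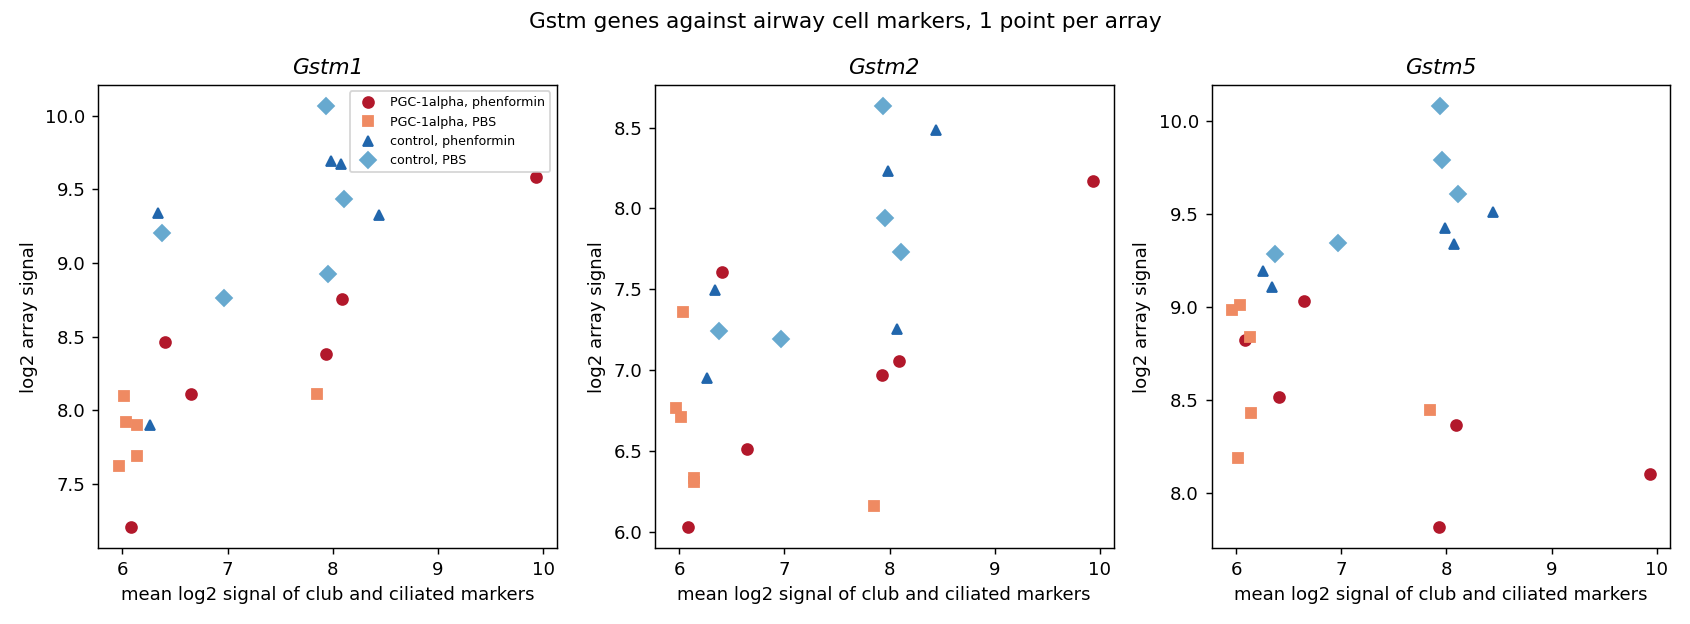
Log2 signal of Gstm1, Gstm2 and Gstm5 (y axis) against the mean log2 signal of the club and ciliated cell markers (x axis), with 1 point per array and a symbol per group. Within each line, medians of Gstm1 and Gstm2 are higher in the arrays with high airway markers, with overlap. For Gstm5 the PGC-1alpha and control arrays do not overlap over all arrays, so they stay apart whatever the marker level.

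Lung and immune transcripts were present in all metastases. Over the 22 arrays, the alveolar marker Sftpc lay between 13.10 and 13.67, the endothelial marker Pecam1 between 8.36 and 9.67 and the leukocyte marker Ptprc between 9.76 and 10.77. The epithelial markers Krt8 and Epcam lay between 12.13 and 12.45 and between 6.44 and 7.97. Markers of alveolar type 2 and endothelial cells had median differences between the lines of -0.21 and -0.26 under phenformin and -0.25 and -0.26 under PBS. Of 5 neutrophil markers tested, 4 were lower in PGC-1alpha metastases under both treatments in limma with Benjamini-Hochberg adjustment (median differences -0.80 under phenformin and -0.91 under PBS). Their mean level per array was 7.37 to 7.92 in PGC-1alpha and 8.14 to 8.69 in control under phenformin, and 7.41 to 8.55 in PGC-1alpha and 8.39 to 8.90 in control under PBS. With the immune score as a covariate, the phenformin calls of the 3 gene lists described below became 2 and the averaged calls 0. The part of these cells in the members' differences was not tested beyond the covariate values above. Ppargc1a, the introduced gene, had a difference of 0.59 (SE 0.31, limma adjusted p = 0.166) under phenformin, and was higher in PGC-1alpha metastases by 1.36 (SE 0.31, limma adjusted p = 0.0198) under PBS, a call that ended without array 2 or array 5 of control (highest limma adjusted p = 0.0665). Without array 2 of PGC-1alpha under phenformin its difference there was 0.35.

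The genes whose signal followed Gstm1 most closely were picked by Pearson's r over the 22 arrays, on deviations from the group means, among 15544 genes. They were Alas1, the first enzyme of heme synthesis (r = 0.83), the carbonyl reductase Cbr2 (0.81), Elapor1 (0.81), the adaptor Blnk (0.80) and the aldehyde oxidase Aox3 (0.78). By the same measure Gstm2 was the member most like Gstm1 (r = 0.71), and Gstm5 was not like it (r = -0.14). Over the 45 pairs of members the median r was 0.21. The arrays share their normalisation and sampled tissue, and these values are descriptions.

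Of the other glutathione transferases, 2 or 3 of 19 passed in each comparison of the lines, all lower in PGC-1alpha metastases. Of 23 listed, 19 were tested. Under phenformin 0 were higher and 3 lower (10% and 11.1% of all genes), under PBS 0 were higher and 2 lower (1.21% and 1.72%), and averaged over treatments 0 were higher and 3 lower (11.3% and 13.3%). Their median differences were -0.18, -0.08 and -0.11 in these comparisons. Gstm4, of the mu class, was lower under phenformin, at 6.75 ± 0.43 in PGC-1alpha (SD, n = 6) against 7.35 ± 0.15 in control (n = 5), a difference of -0.60 (SE 0.18, limma adjusted p = 0.0222) that did not pass without array 2 of PGC-1alpha (limma adjusted p = 0.059). Gstt2, of the theta class, was lower in PGC-1alpha than in control under phenformin by 0.67 on the log2 scale (SE 0.24, limma adjusted p = 0.0489). With each of the 22 arrays left out in turn, this call was lost 16 times (highest limma adjusted p = 0.157). The group means of Gstm4 and Gstt2 under phenformin lay below the 95th percentile of the negative controls (7.83 to 8.43 by array). Gstk1, the kappa-class enzyme of mitochondria and peroxisomes, differed by -0.49 (SE 0.17, limma adjusted p = 0.039) averaged over treatments, a call lost in 11 of the 22 fits without 1 array. The remaining calls were Gstp3 and Gstm7, whose means in PGC-1alpha under PBS, 4.69 and 4.68, lay within the range of the median negative controls, so no fold is given.

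Among genes of glutathione synthesis, turnover and thiol exchange, calls went in both directions. Of 24 listed, 21 were tested. Under phenformin 1 was higher and 5 were lower (10% and 11.1% of all genes), under PBS 1 was higher and 0 were lower (1.21% and 1.72%), and averaged over treatments 1 was higher and 6 were lower (11.3% and 13.3%). Their median differences were -0.06, -0.04 and -0.08, beside 0.00, 0.01 and 0.02 over all genes. Slc7a11, the cystine importer that supplies cysteine for glutathione, had 6.91 ± 0.25 in PGC-1alpha (SD, n = 6) and 7.56 ± 0.60 in control (n = 5) under phenformin, a difference of -0.66 (SE 0.19, limma adjusted p = 0.0188). Array 5 of control was high, at 8.58, and without it the difference was -0.40. Under PBS the difference was -0.31 (SE 0.19, limma adjusted p = 0.399). Between the lines under phenformin, Chac2, which degrades glutathione, was lower in PGC-1alpha by 0.58 on the log2 scale (SE 0.16). The glutaredoxin Glrx was lower there by 0.63 (SE 0.17). Group means of Slc7a11 and Glrx under phenformin lay below the 95th percentile of the negative controls (7.83 to 8.43 by array). Glrx2, the mitochondrial glutaredoxin, and Hagh, the second enzyme of the glyoxalase pathway, differed by -0.28 (SE 0.10) and -0.33 (SE 0.11).

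Averaged over treatments, the lower genes were Slc7a11 (-0.48), Glrx (-0.39), Chac2 (-0.35), Glrx2 (-0.27), Hagh (-0.25) and the glyoxalase Glo1 (-0.22). The Glo1 call was lost in 15 of the 22 fits without 1 array. In each line comparison, 1 gene of this list was called higher in PGC-1alpha than in control metastases, a different gene each time. Ggt5 was higher under phenformin (0.56, SE 0.13, limma adjusted p = 0.00691) and had -0.16 (SE 0.13) under PBS. Dpep2 was higher under PBS (0.78, SE 0.21, limma adjusted p = 0.043) and had -0.03 (SE 0.21) under phenformin. The Dpep2 call was lost in 10 of the 22 fits without 1 array (highest limma adjusted p = 0.128). Group means of Ggt5 and Dpep2 under both treatments lay below the 95th percentile of the negative controls (7.83 to 8.43 by array). The aminopeptidase Lap3 was higher averaged over treatments (0.38, SE 0.12, limma adjusted p = 0.0218). The synthetase Gss, the next enzyme after glutamate-cysteine ligase, and the reductase Gsr were not called. Gss differed by -0.19 under phenformin and -0.01 under PBS (SE 0.17 each), and Gsr by -0.02 and 0.25 (SE 0.15 each).

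NRF2 regulators and targets gave calls in both directions, at shares near or below those of all genes. Of 24 listed, 22 were tested. Under phenformin 1 was higher and 1 lower (10% and 11.1% of all genes), under PBS 0 passed in limma (1.21% and 1.72%), and averaged over treatments 3 were higher and 2 lower (11.3% and 13.3%). At an unadjusted p under 0.05, 3 of the 22 passed under PBS. Nfe2l2, which encodes NRF2, was higher in PGC-1alpha under phenformin by 0.52 (SE 0.16, limma adjusted p = 0.0222), at 6.46 ± 0.16 (SD, n = 6) against 5.94 ± 0.29 in control (n = 5), and had -0.17 (SE 0.16) under PBS. The call ended without array 3 of PGC-1alpha or array 2 or 4 of control (highest limma adjusted p = 0.0647). Group means of Nfe2l2, 5.94 to 6.46, lay below the 95th percentile of the negative controls (7.83 to 8.43 by array). The interaction for Nfe2l2 was 0.70 (SE 0.22, limma adjusted p = 0.311). Keap1, which directs NRF2 to degradation, had 0.01 under both treatments (SE 0.21 each). Bach1, a repressor at the same elements, was higher averaged over treatments by 0.24 (SE 0.08, limma adjusted p = 0.0212).

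Mafg, a partner of both factors, and Sqstm1, which binds KEAP1, were also higher averaged over treatments, by 0.30 and 0.28 (SE 0.10 each). Among targets, the quinone reductase Nqo2 (-0.31, SE 0.10) and the aldo-keto reductase Akr1b8 (-0.45, SE 0.14) were lower in PGC-1alpha averaged over treatments. Abcc1, an exporter of glutathione conjugates, was lower in PGC-1alpha than in control under phenformin (-0.47, SE 0.15), with -0.01 (SE 0.15) under PBS. Abcc1 and Bach1 lie on chromosome 16, on which 491 tested genes had median differences of -0.15 under phenformin and -0.14 under PBS. In the comparisons of treatments and the interaction, 0 genes of the 3 lists passed in limma; 7 of their 62 tested genes had an unadjusted p under 0.05 in PGC-1alpha metastases, 8 in control metastases, 3 averaged over the lines and 10 for the interaction. The 11 calls of the 3 lists between the lines under phenformin became 5 without array 2 or array 3 of the PGC-1alpha group, and 6 without its array 5 or array 1 of the control group. The 3 calls under PBS became 0 without array 1, 2 or 6 of the PGC-1alpha group or array 1, 2 or 5 of the control group, and 1 without array 3, 4 or 5 of the PGC-1alpha group or array 4 of PGC-1alpha under phenformin. Of the 29 calls of single genes in the 3 line comparisons, 11 passed without any 1 array: Ggt5, Chac2, Slc7a11 and Glrx under phenformin, and Gstp3, Lap3, Slc7a11, Glrx, Glrx2, Bach1 and Akr1b8 averaged over treatments. The other 18 did not pass without at least 1 array.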

How the data were processed

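RNA of lung metastases isolated by laser capture microdissection was measured on 22 microarrays, 10 ng per sample, per the labels' protocols. The deposited values are log2 signals that the authors had already processed, with oligo per the submitters' processing notes. Its version, the background correction and the normalisation are not given in the sources used here, nor is a genome build. Array medians were 6.55 to 6.64, and the number of arrays limits the precision. A further table with 22 columns of per-sample values that match no sample name was not used.

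Of 28815 probe sets, 22206 were not controls and 19572 had 1 symbol, which stood for 19505 genes. Tests covered the 15545 genes above the 25th percentile of an array's signals in 5 or more arrays. One limma model held all 4 groups (limma 3.58.1, R 4.3.3), with 18 residual and 5.67 prior degrees of freedom. P-values are two-sided, adjusted by Benjamini-Hochberg over all tested genes, with a threshold of 0.05. The fit was tested on simulated data. Figures were drawn with matplotlib 3.10.9. The labels do not say that samples came from separate animals, so p-values measure the spread between these samples, which may be technical.

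Named genes were the 10 members; Ppargc1a; Nfe2l2, Keap1 and Bach1; up to 6 passing genes with the largest difference per pathway list and comparison; the 5 genes most like Gstm1; and 6 defining markers. Genes beside the Gstm cluster, Gss, Gsr and members of the lists named with them were added after their values were seen. The members and lists were chosen with earlier results of these data known. Alternatives were other scalings, filters, probe-set means, a replicate block, smaller fits, marker covariates, array weights and leaving out each array.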

Additional observations from a re-analysis of the deposited data

Results flagged for a closer look

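In 40 sets of values (10 genes in 4 groups), 3 had an array far from the others of its group by Dixon's criterion, and chance flags about 1 in 20 groups. Gstm1 in array 5 of control under phenformin was 7.90, against 9.32 to 9.70 in the other arrays of that group. Gclc in array 1 of PGC-1alpha under PBS was 10.71, against 10.33 to 10.47 in the other arrays. Gclm in array 5 of control under PBS was 9.08, against 8.51 to 8.66 in the other arrays.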

How the results depend on the processing

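The Gstm1 difference between the lines kept its direction under every alternative. It ran from -1.09 to -0.53 under phenformin when arrays were left out in turn, from -1.52 to -1.19 under PBS and from -1.24 to -0.96 averaged over treatments; the ends under phenformin were reached without array 5 of control and without array 2 of PGC-1alpha. With the normal lung score as covariate it was -0.62 under PBS. With the replicate number as a block it was -0.78 under phenformin and -1.40 under PBS. Gstm2 under PBS was -0.47 with the normal lung score, and Gstp1 under phenformin turned to 0.08 with quantile normalisation; the cause was not tested. Of the 879 other values for single members between the lines, 11 changed sign, all in Gsta4, Gstp1, Gstt1 or Nqo1.

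Calls among the 3 pathway lists moved more. The 11 under phenformin became 18 with array medians centred, 7 with quantile normalisation, 2 with the immune score and 17 with array weights, and 5 to 14 with arrays left out. The 3 under PBS became 1 with the replicate block or array weights and 0 with the club and ciliated, normal lung or immune score, and 0 to 3 with arrays left out. The 15 averaged over treatments became 4 with the normal lung score and 0 with the immune score, and 10 to 16 with arrays left out. No treatment or interaction value of a member passed under any of 1296 combinations of value and alternative, and the lowest adjusted p among them was 0.426. The replicate block changed no other call; replicate numbers share no known source, and deviations of the 31 same-numbered pairs had a median r of 0.0059. Signal near the negative controls limits Nqo1, Gstm2, Gstm7 and Gstp3, and Gstm1 in PGC-1alpha metastases under PBS.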
